A study of Homo sapiens with 12 samples.

Results

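Autophagy adaptor, ATG8 and core autophagy transcripts were examined in HK-2 cells, an immortalised human line of renal proximal tubular epithelium, exposed to CdCl. The 9 genes were MAP1LC3B, GABARAP, GABARAPL1 and GABARAPL2, which encode ATG8 proteins, the cargo adaptors SQSTM1 and NBR1, and WIPI1, ULK1 and ATG12 of the core machinery. They were chosen by symbol, with earlier results of these data known, so their contrasts with all genes are descriptions. All 9 were among the 10683 genes tested of 19775 with a probe set of exactly 1 symbol. Each gene was read on its probe set with the highest mean signal over the 12 arrays.

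The 4 groups were control cells at 12 h, CdCl cells at 12 h, control cells at 48 h and CdCl cells at 48 h, with 3 biological replicates per group and 1 array each. The controls received vehicle. All cells were treated near confluence in DMEM and Ham's F12 medium that held hydrocortisone, insulin, transferrin, selenite and epidermal growth factor. No source used here gives the dose, and HK-2 is a single immortalised line, so all groups share its genotype.

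Autophagy carries cytoplasmic material to the lysosome in a vesicle with a double membrane. ATG8 proteins are small ubiquitin-like proteins that become joined to the lipid of the growing vesicle membrane, where adaptors that hold ubiquitinated cargo bind them. The kinase ULK1 starts the process, WIPI1 binds phosphoinositide on the forming membrane, and ATG12 is conjugated to ATG5 as part of the enzyme that lipidates ATG8 proteins. In the proximal tubule, a main site of cadmium uptake in the kidney, autophagy removes damaged organelles and protein aggregates. The arrays measured mRNA, which does not give the lipidation of an ATG8 protein or the flow of cargo to the lysosome.

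The promoters of the 3 genes used as index genes for shared expression patterns are shown first. All 9 genes matched an entry in the RefSeq promoter table (GRCh38.p14), and the 250 bases before each start were searched on both strands for 4 motifs. The MAP1LC3B window lies at chr16:87392086-87392335 on the plus strand, that of GABARAPL1 at chr12:10212627-10212876 on the plus strand and that of SQSTM1 at chr5:179806143-179806392 on the plus strand. Each window reads 5′ to 3′ and ends at the base before the start, and capitals mark a motif match.
MAP1LC3B: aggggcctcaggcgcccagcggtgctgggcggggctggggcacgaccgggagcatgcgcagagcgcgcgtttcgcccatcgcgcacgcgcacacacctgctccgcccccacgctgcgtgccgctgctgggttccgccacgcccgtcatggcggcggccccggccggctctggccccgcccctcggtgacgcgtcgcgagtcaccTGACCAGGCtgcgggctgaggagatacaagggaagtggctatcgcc
GABARAPL1: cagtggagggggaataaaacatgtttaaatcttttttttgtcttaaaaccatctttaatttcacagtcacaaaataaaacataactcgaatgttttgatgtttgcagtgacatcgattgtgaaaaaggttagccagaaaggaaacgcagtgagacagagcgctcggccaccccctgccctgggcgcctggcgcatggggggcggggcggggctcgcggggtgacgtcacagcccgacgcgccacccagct
SQSTM1: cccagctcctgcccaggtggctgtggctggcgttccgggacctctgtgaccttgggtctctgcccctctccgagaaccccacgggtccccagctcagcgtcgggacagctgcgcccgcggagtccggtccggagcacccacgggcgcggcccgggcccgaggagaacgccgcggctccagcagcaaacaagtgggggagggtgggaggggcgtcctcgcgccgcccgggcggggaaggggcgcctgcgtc
The capitals in the MAP1LC3B window, TGACCAGGC, match the antioxidant response element core TGACNNNGC and lie 46 to 38 bases before the start. This core was present in 11% of the 27305 promoter windows and in 1 of the 9 members. The heat shock element core GAANNTTC was present in 5.85% of windows and in 1 member, GABARAPL2, whose match GAACATTC lies 219 to 212 bases before the start and reads the same on both strands. The C/EBP-ATF composite element TGATGNAA, present in 3.19% of windows, and the E-box core CACGTG, present in 6.49%, had no match in any of the 9 windows. None of the 4 motifs contains another. GC content of the 9 windows ranged from 51.6% in GABARAPL1 and NBR1 to 79.6% in WIPI1, and they held 10 to 33 CpG dinucleotides, against medians of 58% and 11 over all windows.

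The median log2 signal of an array was 2.97 to 3.04. Arrays of a group correlated at 0.9965 to 0.9982 over probe sets, and arrays of different groups at 0.9731 to 0.989. Of 14 renal epithelial markers, 6 passed the filter, KRT8, KRT18, KRT19, CDH1, CDH2 and PAX8, while the proximal tubule markers AQP1, LRP2, CUBN, SLC34A1, GGT1 and ANPEP and the renal factor PAX2 lay under 4 on all 12 arrays. Of 7 markers of other cell types with a probe set, 6 lay under 4 on all arrays and AQP2 had group means of 4.32 to 4.40. The 24 probe sets for spiked-in control RNA averaged 6.53 ± 0.13 (SD, n = 3) in controls and 7.00 ± 0.04 in CdCl arrays at 12 h. At 48 h they averaged 6.14 ± 0.10 and 6.31 ± 0.49. Their part in the results below was not tested.

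At 12 h, CdCl cells had higher signals than controls for 6 of the 9 genes, led by MAP1LC3B at 3.45-fold, with GABARAPL1, SQSTM1, WIPI1 and ATG12 between 2.09-fold and 2.45-fold and GABARAPL2 at 1.18-fold. GABARAP and NBR1 were lower, by 1.19-fold and 1.28-fold, and ULK1 did not pass the test. Over all 10683 genes, 16.7% were called higher and 39.7% lower at 12 h. In such bulk RNA, a lower signal from fewer cells that hold a transcript and from less of it per cell cannot be told apart. The median change was 1.07 over the 9 members and -0.16 over all genes on the log2 scale. At 48 h, MAP1LC3B, GABARAPL1, SQSTM1, WIPI1 and ATG12 were still higher in CdCl cells, by 1.46-fold to 2.25-fold, no member was called lower, and 4 members did not pass the test. Among members with a lower mean in CdCl cells at 48 h, the smallest unadjusted p was 0.127, for ULK1. Over all genes, 26.5% were called higher and 28.0% lower at 48 h, and the median change was 0.55 over the members and -0.02 over all genes. Tests were by limma over all 12 arrays, with p-values adjusted by Benjamini-Hochberg over the 10683 genes and a threshold of 0.05, and changes are given on the log2 scale with the standard error of the fit.

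Beside the effect of CdCl, all 9 members were higher in controls at 48 h than in controls at 12 h, with a median of 0.65 on the log2 scale against -0.06 over all genes. For ULK1 this call (adjusted p = 0.0488) was lost in 9 of 12 fits without 1 array and in 3 of the other settings, and the other 8 were called in every fit run. In that comparison 23.4% of all genes were called higher and 33.5% lower. The 12 h effect of CdCl and the change in controls use the same 3 control arrays at 12 h.

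**Figure D1:**
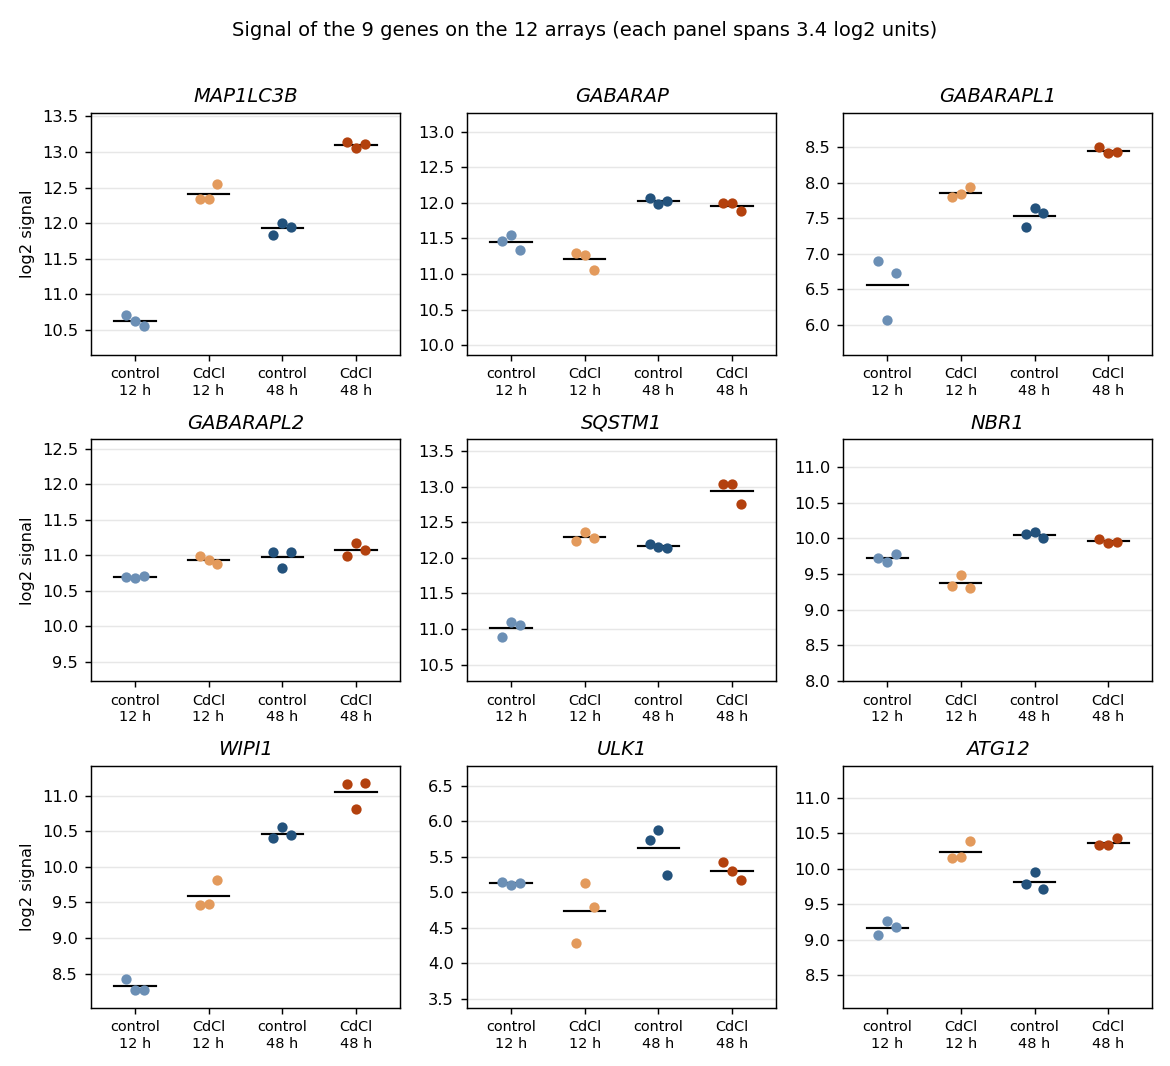
Log2 signal (vertical axes, the same span in every panel) of each of the 9 genes on the 12 arrays, by group; points are arrays and bars are means of 3. MAP1LC3B, GABARAPL1, SQSTM1, WIPI1 and ATG12 were higher in CdCl than in control arrays at both times, with no overlap, and all 9 genes were higher in controls at 48 h than at 12 h.

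MAP1LC3B encodes LC3B, the ATG8 protein most often followed as a marker of autophagosomes. Its log2 signal was 10.70, 10.62 and 10.55 in controls at 12 h and 12.34, 12.34 and 12.56 in CdCl cells at 12 h. At 48 h it was 11.84, 12.00 and 11.94 in controls and 13.14, 13.05 and 13.11 in CdCl cells. No 2 groups overlapped, and the order from lowest to highest was control at 12 h, control at 48 h, CdCl at 12 h and CdCl at 48 h. CdCl raised the signal by 1.79 ± 0.08 at 12 h (adjusted p = 1.05e-08) and by 1.17 ± 0.08 at 48 h (adjusted p = 2.56e-07). In controls it rose by 1.30 ± 0.08 from 12 h to 48 h (adjusted p = 8.88e-08). Control cells at 48 h therefore lay nearer in MAP1LC3B signal to the CdCl cells at 12 h than to the controls at 12 h.

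GABARAPL1 encodes an ATG8 protein of the GABARAP branch. Its signals were 6.89, 6.07 and 6.73 in controls and 7.79, 7.84 and 7.93 in CdCl cells at 12 h. They were 7.37, 7.64 and 7.57 in controls and 8.50, 8.42 and 8.44 in CdCl cells at 48 h. The groups followed the same order as those of MAP1LC3B without overlap, and control replicate 2 at 12 h was the lowest array. The change with CdCl was 1.29 ± 0.17 at 12 h (adjusted p = 5.8e-05) and 0.92 ± 0.17 at 48 h (adjusted p = 0.000643). The change in controls was 0.97 ± 0.17 (adjusted p = 0.000425).

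GABARAP and GABARAPL2, the other ATG8 genes of that branch, moved little. GABARAP read 11.47, 11.54 and 11.34 in controls and 11.29, 11.27 and 11.06 in CdCl cells at 12 h, a gap of 0.05 between the groups. The difference of -0.24 ± 0.08 passed the test (adjusted p = 0.0205), but it did not when each array was centred on the median of the genes tested (-0.10, adjusted p = 0.353), nor without control replicate 1, control replicate 2 or CdCl replicate 3 at 12 h, with adjusted p = 0.0535, 0.0814 and 0.0896. At 48 h GABARAP read 12.07, 11.99 and 12.03 in controls and 11.99, 12.00 and 11.89 in CdCl cells, which overlapped. The difference was -0.07, with a 95% interval of -0.24 to 0.11 and adjusted p = 0.493. In controls GABARAP rose by 0.58 ± 0.08 with time (adjusted p = 7.08e-05).

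GABARAPL2 read 10.69, 10.68 and 10.71 in controls and 10.99, 10.93 and 10.88 in CdCl cells at 12 h. The 3 controls lay close together and below all CdCl arrays, and the difference was 0.24 ± 0.08 (adjusted p = 0.0216). This call was lost without control replicate 2 or CdCl replicate 1 at 12 h (adjusted p = 0.0559 and 0.0744). At 48 h it read 11.05, 10.82 and 11.05 in controls and 10.99, 11.18 and 11.07 in CdCl cells, with overlap, a difference of 0.11 and a 95% interval of -0.06 to 0.28 (adjusted p = 0.265). The rise in controls was 0.28 ± 0.08 (adjusted p = 0.0103).

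SQSTM1 encodes p62, an adaptor that binds ubiquitin and ATG8 proteins and is itself degraded by autophagy. Its signals were 10.89, 11.09 and 11.06 in controls and 12.24, 12.36 and 12.28 in CdCl cells at 12 h. At 48 h they were 12.19, 12.16 and 12.14 in controls and 13.03, 13.04 and 12.75 in CdCl cells. No 2 groups overlapped, and the highest control at 48 h lay just below the lowest CdCl array at 12 h. CdCl raised SQSTM1 by 1.28 ± 0.09 at 12 h (adjusted p = 4.34e-07) and by 0.78 ± 0.09 at 48 h (adjusted p = 1.58e-05), and time in controls raised it by 1.15 ± 0.09 (adjusted p = 5.91e-07).

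NBR1 encodes an adaptor of similar domain layout to p62. It read 9.73, 9.67 and 9.78 in controls and 9.34, 9.48 and 9.30 in CdCl cells at 12 h, so that all CdCl arrays lay below all controls. The difference was -0.35 ± 0.07 (adjusted p = 0.000816), and -0.21 (adjusted p = 0.0174) with each array centred on the median of the genes tested. At 48 h it read 10.06, 10.09 and 10.01 in controls and 9.99, 9.93 and 9.95 in CdCl cells, groups that were separated by 0.02 but did not pass the test (-0.10, 95% interval -0.24 to 0.05, adjusted p = 0.249). In controls NBR1 rose by 0.33 ± 0.07 (adjusted p = 0.00124). Of the 2 adaptors, SQSTM1 was higher and NBR1 lower in CdCl cells at 12 h on these probe sets.

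WIPI1 had the largest rise in controls among the 9 genes. It read 8.42, 8.26 and 8.27 in controls and 9.47, 9.48 and 9.81 in CdCl cells at 12 h. At 48 h it read 10.40, 10.56 and 10.45 in controls and 11.17, 10.81 and 11.18 in CdCl cells. The 4 groups were separate, in the order control at 12 h, CdCl at 12 h, control at 48 h and CdCl at 48 h, so the controls at 48 h lay above the CdCl cells at 12 h. WIPI1 rose in controls by 2.15 ± 0.12, a 4.44-fold change (adjusted p = 4.5e-08), and with CdCl by 1.27 ± 0.12 at 12 h (adjusted p = 4.68e-06) and 0.58 ± 0.12 at 48 h (adjusted p = 0.00134).

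ATG12 read 9.06, 9.26 and 9.18 in controls and 10.15, 10.16 and 10.39 in CdCl cells at 12 h. At 48 h it read 9.78, 9.95 and 9.71 in controls and 10.33, 10.33 and 10.43 in CdCl cells. CdCl arrays lay above controls at each time, and the CdCl arrays of the 2 times overlapped. The change was 1.07 ± 0.09 at 12 h (adjusted p = 2.38e-06), 0.55 ± 0.09 at 48 h (adjusted p = 0.000334) and 0.65 ± 0.09 in controls with time (adjusted p = 7.99e-05).

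ULK1 had signals close to the filter of 4, reading 5.14, 5.10 and 5.13 in controls and 4.28, 5.13 and 4.80 in CdCl cells at 12 h. At 48 h it read 5.74, 5.87 and 5.25 in controls and 5.42, 5.30 and 5.18 in CdCl cells. Control and CdCl arrays overlapped at both times, and the differences of -0.39 (95% interval -0.82 to 0.04, adjusted p = 0.11) and -0.32 (95% interval -0.75 to 0.11, adjusted p = 0.188) did not pass the test. Without CdCl replicate 2 at 12 h, the 12 h difference was -0.59 (adjusted p = 0.0211), and without control replicate 3 at 48 h, the 48 h difference was -0.51 (adjusted p = 0.0451). The rise in controls, 0.49 ± 0.20, lay at the threshold (adjusted p = 0.0488).

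**Figure D2:**
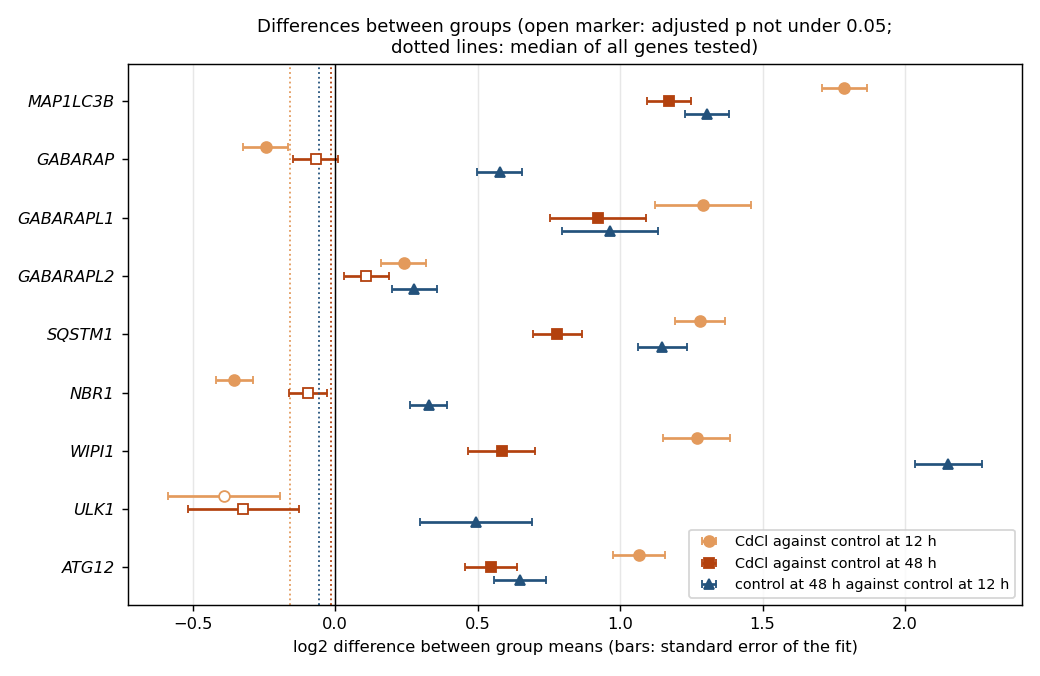
Log2 differences of the 9 genes (horizontal axis) for CdCl against control at 12 h and at 48 h and for controls at 48 h against 12 h, with the standard error of the fit; open markers did not pass adjusted p 0.05, and dotted lines mark the median of all genes tested. On the main probe sets, MAP1LC3B had the largest CdCl effect at both times among the 9 genes (1.79 and 1.17), and WIPI1 the largest change in controls (2.15).

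The difference between the CdCl effects at the 2 times was tested as an interaction, 48 h minus 12 h. MAP1LC3B (-0.62 ± 0.11, adjusted p = 0.00126), SQSTM1 (-0.50 ± 0.12, adjusted p = 0.00777), WIPI1 (-0.68 ± 0.17, adjusted p = 0.00729) and ATG12 (-0.52 ± 0.13, adjusted p = 0.00777) had smaller CdCl effects at 48 h. NBR1 had a difference of 0.26 ± 0.09 (adjusted p = 0.0466), which fell to 0.13 (adjusted p = 0.267) with arrays centred on the median of the genes tested and lost the call in 10 of 12 fits without 1 array. For GABARAPL1 the difference was -0.37, with a 95% interval of -0.89 to 0.15 (adjusted p = 0.24). Without control replicate 2 at 12 h it was -0.12 (adjusted p = 0.491), and over the 12 fits without 1 array it ranged from -0.53 to -0.12. GABARAP, GABARAPL2 and ULK1 did not pass either. Over all genes, 27.0% were called higher and 13.0% lower in this comparison, with a median of 0.13 against -0.37 over the members. The interaction uses the control arrays of both times, and the mean control signal of all 9 members was higher at 48 h than at 12 h.

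Centring mattered for the counts over all genes. With each array centred on the median of the genes tested, the medians moved by 0.15 at 12 h, 0.02 at 48 h, -0.13 in the interaction and 0.08 in controls with time. The share of calls that were lower moved from 70.4% to 52.1% at 12 h and from 32.6% to 51.1% in the interaction. By construction this centring left medians of -0.011 at 12 h and 0.003 in the interaction, so a more even split was largely built in. Of the members, GABARAP at 12 h and NBR1 in the interaction lost their calls, and no called change of a member reversed.

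The 9 genes had 21 probe sets with 1 symbol, of which 17 passed the filter. The 8 further ones that passed allow the same comparison on other probes of the same genes. Whether they read the same transcripts was not tested. Of the 17, 14 were called higher, 2 lower and 1 neither at 12 h, and 11 were called higher and 6 were not called at 48 h, in a fit with every probe set as a feature. In controls with time, 16 were called higher and 1 was not called, and in the interaction 5 were called lower and 12 were not called. Over all 19005 features of that fit, 3801 were called higher at 12 h, and a larger number were called lower. At 48 h, 4523 features were called higher and 4930 lower. In controls with time, 4728 of them were called higher and 5395 lower. In the interaction 2910 were called lower, and a larger number were called higher. The median change over all features was -0.095 at 12 h and 0.057 in the interaction. MAP1LC3B, whose probe sets can also bind transcripts of its close paralog MAP1LC3B2, was higher on its other probe set by 1.33 ± 0.10 at 12 h (adjusted p = 9.09e-07) and 1.44 ± 0.10 at 48 h (adjusted p = 3.47e-07). There the CdCl effect was not smaller at 48 h (interaction 0.11, adjusted p = 0.549), against -0.62 on the main probe set. A further probe set shared by GABARAPL1 and GABARAPL3 was not used.

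SQSTM1 had 2 further probe sets above the filter. The first was higher with CdCl by 1.43 ± 0.13 at 12 h (adjusted p = 5.14e-06) and 1.57 ± 0.13 at 48 h (adjusted p = 1.96e-06), with an interaction of 0.14 (adjusted p = 0.586). The other was higher by 0.84 ± 0.13 (adjusted p = 0.000304) and 0.60 ± 0.13 (adjusted p = 0.00268), with an interaction of -0.23 (adjusted p = 0.36). So the higher SQSTM1 signal at both times was present on all 3 probe sets, and the smaller effect at 48 h passed the test on the main one alone.

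NBR1 had probe sets that moved in opposite directions at 12 h. The main one fell, and the other, whose group means ranged from 6.95 to 7.95, was higher by 0.34 ± 0.11 (adjusted p = 0.0261), with 0.05 at 48 h (adjusted p = 0.721). The direction of NBR1 with CdCl at 12 h therefore depends on the probe set. WIPI1 was higher on its other probe set by 1.11 ± 0.08 at 12 h (adjusted p = 1.06e-06) and 0.80 ± 0.08 at 48 h (adjusted p = 1.02e-05), with an interaction of -0.32 at the threshold (adjusted p = 0.0511). ATG12 was higher on its other 2 at 12 h, by 1.09 ± 0.11 and 0.67 ± 0.13, and at 48 h by 0.57 ± 0.11 on the first, while 0.22 ± 0.13 on the last did not pass (adjusted p = 0.176). GABARAPL1 was higher on its other probe set by 1.26 ± 0.15 at 12 h and 0.82 ± 0.15 at 48 h (adjusted p = 3.23e-05 and 0.000677).

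**Figure D3:**
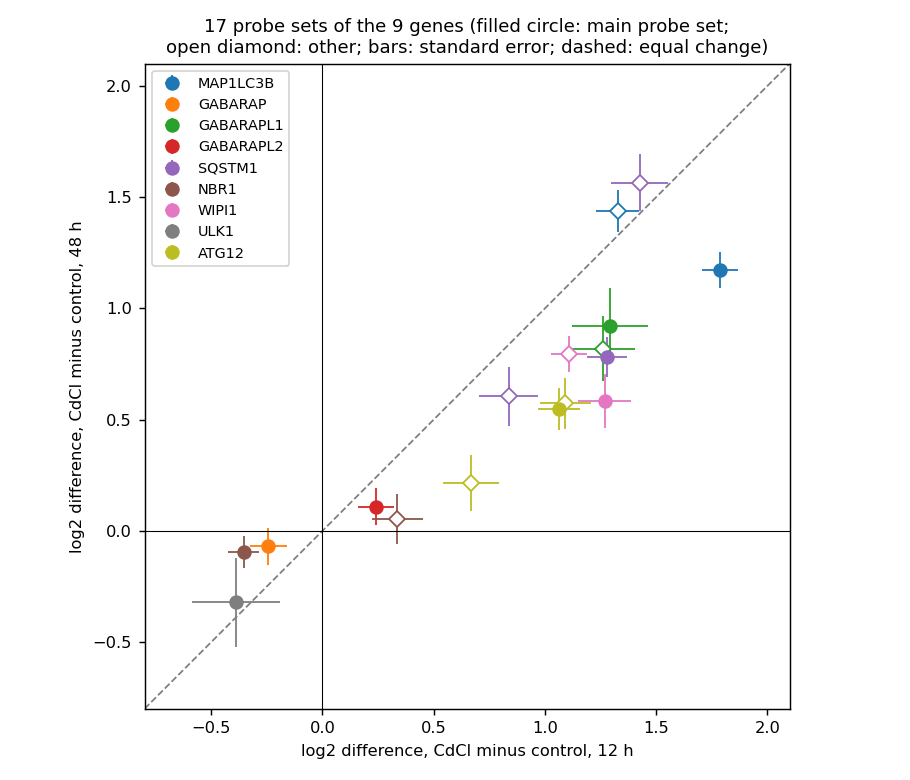
Log2 difference between CdCl and control at 12 h (horizontal axis) and at 48 h (vertical axis) for the 17 probe sets of the 9 genes above the filter, with standard errors; filled circles are the main probe sets, open diamonds the others, and the dashed line marks equal change. MAP1LC3B and SQSTM1 each have a further probe set on the other side of the line from the main one, and the 2 NBR1 probe sets lie on opposite sides of 0 at 12 h.

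Other genes of the autophagy pathway were read from 5 lists with 78 genes, of which 70 passed the filter. Their calls were divided between the 2 directions. At 12 h, 16 were higher and 24 lower with CdCl, with a median of -0.10 against -0.16 over all genes, of which 16.7% were called higher and 39.7% lower. After centring arrays on the median of the genes tested, the split was 21 higher and 18 lower, so the balance at 12 h depends on the centring. At 48 h, 21 were higher and 16 lower, with a median of 0.11 against -0.02 and with 26.5% higher and 28.0% lower over all genes. In controls with time, 27 were higher and 15 lower, with a median of 0.14 against -0.06 and with 23.4% higher and 33.5% lower over all genes. The counts of each list below stand beside the same shares over all genes. The remaining ATG8 genes MAP1LC3A, MAP1LC3C and MAP1LC3B2 did not pass the filter and lay under 4 on all 12 arrays.

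Among 9 tested genes of ATG8 processing and conjugation, 2 were higher and 3 lower at 12 h, and 3 were higher and 1 lower at 48 h. ATG5, the partner of ATG12, was higher by 0.46 ± 0.08 at 12 h and 0.49 ± 0.08 at 48 h (adjusted p = 0.000344 and 2e-04). The ATG4 proteases, which trim ATG8 proteins, differed among themselves. ATG4A was higher at both times (0.29 and 0.45, adjusted p = 0.046 and 0.00558), ATG4B was higher at 48 h by 0.72 ± 0.07 (adjusted p = 6.71e-06), and ATG4C and ATG4D were lower at 12 h by 1.43-fold each (adjusted p = 0.00103 and 0.00817). ATG4D was lower at 48 h too (-0.42, adjusted p = 0.0255), close to the filter with group means of 4.10 to 4.69. ATG7, the activating enzyme, was lower at 12 h on its main probe set (-0.94 ± 0.21, adjusted p = 0.00222), while its other 2 above the filter gave 0.06 and 0.18 (adjusted p = 0.755 and 0.468).

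Among 16 tested genes of initiation and phagophore growth, 2 were higher and 6 lower at 12 h, a split that became 5 and 3 with arrays centred on the median of the genes tested. At 48 h, 4 were higher and 2 lower. NRBF2, a subunit of the phosphatidylinositol 3-kinase complex, was higher by 0.92 ± 0.11 and 0.64 ± 0.11 at the 2 times (adjusted p = 2.7e-05 and 0.000368), and RB1CC1, the scaffold of the ULK complex, by 0.78 ± 0.12 at 12 h (adjusted p = 0.000166). ATG13 of the same complex was higher at 48 h by 0.97 ± 0.09 (adjusted p = 3.36e-06), and ATG101 by 0.47 ± 0.07 (adjusted p = 0.000138). WDR45, a relative of WIPI1, was lower at 12 h (-0.71 ± 0.07, adjusted p = 1.1e-05) and higher at 48 h (0.49 ± 0.07, adjusted p = 0.000156). PIK3R4, the regulatory subunit of the phosphatidylinositol 3-kinase complex, was lower at both times (-0.58 and -0.33, adjusted p = 1.85e-05 and 0.00115), and ATG2B was lower at 48 h by 1.39-fold (adjusted p = 0.000402). AMBRA1 was lower at 12 h by 1.48-fold (adjusted p = 0.0117) on its main probe set and not on the other (-0.06, adjusted p = 0.496).

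Among 12 tested cargo receptors other than SQSTM1 and NBR1, 3 were higher and 4 lower at 12 h and 4 were higher and 4 lower at 48 h. RETREG1, a receptor for endoplasmic reticulum, was higher by 1.75 ± 0.12 at 12 h (adjusted p = 3.93e-07) and 0.44 ± 0.12 at 48 h (adjusted p = 0.00832). Its other probe set was also higher at 12 h (1.80, adjusted p = 1.59e-05) and did not pass at 48 h (0.37, adjusted p = 0.123). The mitochondrial receptors BNIP3 and BNIP3L were higher at 12 h by 1.34 ± 0.09 and 0.56 ± 0.09 (adjusted p = 2.3e-07 and 0.000235). At 48 h BNIP3 did not pass on the main probe set (0.17, adjusted p = 0.113) but was higher on the other (0.32, adjusted p = 0.0148). BNIP3L was lower at 48 h (-0.37 ± 0.09, adjusted p = 0.00407), with -0.05 on its other probe set (adjusted p = 0.598). OPTN, which like p62 binds ubiquitin and ATG8 proteins, was lower at 12 h (-0.74 ± 0.08, adjusted p = 1.28e-05) and higher at 48 h (0.43 ± 0.08, adjusted p = 0.000635). Its other probe set was lower at 12 h as well (-0.57, adjusted p = 0.00539) and gave -0.05 at 48 h (adjusted p = 0.81). TEX264, another receptor for endoplasmic reticulum, was lower at 12 h (-0.60, adjusted p = 0.00158) and higher at 48 h (0.46, adjusted p = 0.00871). The ferritin receptor NCOA4 was lower at both times (-0.39 and -0.45, adjusted p = 0.000712 and 0.00026). WDFY3 was lower at 48 h (-0.58, adjusted p = 0.000281), on 2 of its 3 probe sets above the filter. TOLLIP was higher on its main probe set (0.69, adjusted p = 0.000175) and at 0.02 on the other (adjusted p = 0.923).

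Among 14 tested genes of autophagosome fusion with the lysosome, 3 were higher and 5 lower at 12 h and 4 were higher and 2 lower at 48 h. PLEKHM1, a Rab7 effector, was higher by 0.72 ± 0.09 and 0.76 ± 0.09 (adjusted p = 4.64e-05 and 2.57e-05). STX17, the autophagosomal SNARE, was lower on its main probe set by 1.64-fold at 12 h and 1.31-fold at 48 h (adjusted p = 0.000438 and 0.017). Of its 5 probe sets above the filter, 2 were called lower at each time, and the other 3 gave -0.32 to -0.13 at 12 h and -0.23 to -0.04 at 48 h and were not called. Its partner SNAP29 was lower by 1.32-fold at 12 h (adjusted p = 0.00237). At 48 h SNAP29 did not pass on the main probe set (0.08, adjusted p = 0.463) and was lower on its other 2 (-0.50 and -0.68, adjusted p = 0.0276 and 0.00059). The HOPS tethering subunits VPS16 and VPS18 were lower at 12 h (-0.69 and -0.59, adjusted p = 3.57e-05 and 0.0112). At 48 h the lysosomal membrane protein gene LAMP1 was higher by 0.56 ± 0.06 (adjusted p = 7.85e-06) and EPG5 by 0.41 ± 0.09 (adjusted p = 0.00213), with 0.13 on the other EPG5 probe set (adjusted p = 0.584). The SNARE gene VAMP8 was lower at both times (-0.37 and -0.27, adjusted p = 0.000904 and 0.0067).

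**Figure D4:**
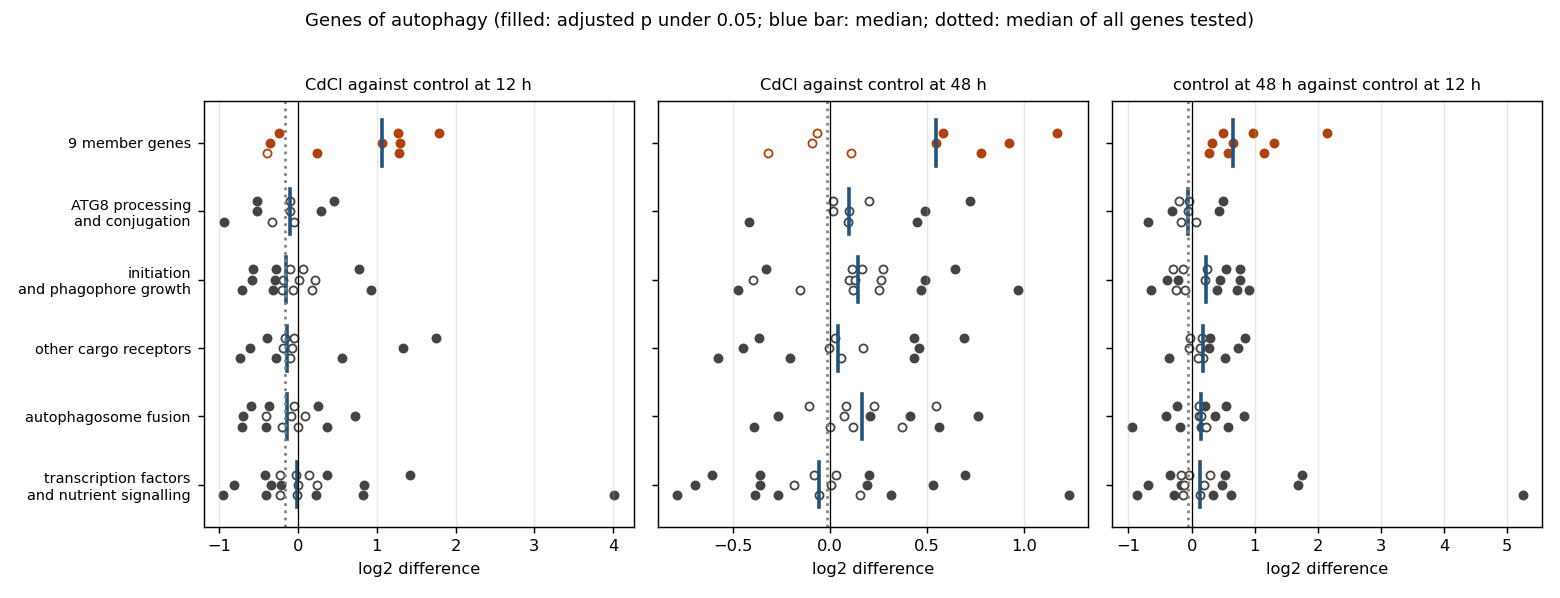
Log2 differences (horizontal axes, with a different range in each panel) of the 9 member genes and of the tested genes in 5 pathway lists for CdCl against control at 12 h and 48 h and for controls at 48 h against 12 h; filled points passed adjusted p 0.05, blue bars are medians and dotted lines the median of all genes. The medians of the 5 lists lie between -0.15 and -0.02 at 12 h, against 1.07 for the members.

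Of 19 tested transcription factors and nutrient signalling genes, 6 were higher and 6 lower at 12 h, or 7 and 4 after centring on the genes tested, and 6 were higher and 7 lower at 48 h. TFE3, a factor that drives lysosome and autophagy genes, was higher by 0.84 ± 0.07 at 12 h (adjusted p = 2.27e-06) and 1.23 ± 0.07 at 48 h (adjusted p = 8.26e-08), on its other 2 probe sets above the filter as well. Its relative TFEB, at group means of 5.09 to 5.31, did not pass (-0.22 and -0.06, adjusted p = 0.0844 and 0.67). DDIT3, which encodes the stress factor CHOP, was 16.2-fold higher at 12 h (4.01 ± 0.08, adjusted p = 1.51e-11). Its group means were 7.48 in controls and 11.50 in CdCl cells at 12 h, and 12.73 and 12.93 at 48 h. Like the members it rose in controls with time, by 5.25 ± 0.08 (adjusted p = 2.86e-12), and its difference of 0.20 at 48 h lost the call under quantile normalisation (adjusted p = 0.106) and under centring on array medians (adjusted p = 0.0765).

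ATF4, whose protein is induced through translation in the integrated stress response and acts on DDIT3 and several autophagy genes, was higher at 12 h (0.37 ± 0.06) and lower at 48 h (-0.39 ± 0.06), and rose in controls by 1.69 ± 0.06 (adjusted p = 2.78e-09). NFE2L2, which encodes the oxidative stress factor NRF2, was lower on its main probe set at both times (-0.40 and -0.70, adjusted p = 0.00207 and 3.58e-05), and its other probe set gave 0.08 at 12 h (adjusted p = 0.61). KEAP1, whose protein holds NRF2 and is bound by p62, was lower by 0.80 on the log2 scale at 12 h, with -0.36 at 48 h. SESN2, a repressor of mTORC1, was higher by 1.43 ± 0.10 at 12 h (adjusted p = 4.96e-07) and 0.32 ± 0.10 at 48 h (adjusted p = 0.018). Its other probe set was also higher at 12 h (1.15, adjusted p = 0.000168) and did not pass at 48 h (0.33, adjusted p = 0.125). The mTORC1 regulators TSC2 and TSC1 were lower at 12 h (-0.95, adjusted p = 0.002) and higher at 48 h (0.70, adjusted p = 0.000338), respectively. The AMPK subunit gene PRKAA2 was higher at both times (0.82 and 0.53, adjusted p = 0.000302 and 0.00559) on its main probe set, while of its other 3, 2 were called higher at 12 h and none passed at 48 h. At 48 h PRKAA1 (-0.61, adjusted p = 0.024) and DDIT4 (-0.79, adjusted p = 7.29e-07) were lower. DDIT4 was also lower at 12 h (-0.22, adjusted p = 0.0092), a call lost with arrays centred on the median of the genes tested (adjusted p = 0.393).

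Across the 12 arrays, the tested genes most like MAP1LC3B by Pearson correlation of log2 signals were SHE, TIMM17A, TES, NFIL3 and SLC26A11 (r = 0.9888 to 0.9907). Those most like SQSTM1 were CEBPB, MXI1, NFIL3, FICD and TEX19 (r = 0.9838 to 0.99). Those most like GABARAPL1 were DNTTIP1, RRN3P1, NFIL3, PJA2 and MAP1LC3B (r = 0.9673 to 0.9861). NFIL3, a transcription factor gene of the bZIP family, was in all 3 sets, with changes of 0.98 at 12 h and 0.76 at 48 h. Among the 5 members higher with CdCl at both times r ranged from 0.793 to 0.98, among GABARAP, NBR1 and ULK1 from 0.732 to 0.934, and between these sets from -0.09 to 0.688. GABARAPL2, in neither set, gave 0.749 to 0.874 with the first and 0.06 to 0.515 with the second. These are descriptions over 12 arrays that fall into 4 groups, so they mostly restate the order of the group means.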

How the data were processed

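Deposited log2 signals of 54675 probe sets were made by the authors with GCRMA, which corrects background by probe sequence, normalises between arrays and summarises probe sets, per the submitters' processing notes. No source used here gives its version. The values were used without further scaling. Symbols came from the platform annotation, updated through gene identifiers to RefSeq, and 41091 probe sets with 1 symbol were kept. Genes were tested if their signal exceeded 4 on at least 3 of 12 arrays. Group means of the 4 groups were fitted with limma 3.58.1 in R 4.3.3 (lmFit, eBayes with a constant prior), giving 4 two-sided comparisons. The pipeline was tested on simulated data. Between 3 arrays and 3, an exact permutation test cannot go below p = 0.1, so each call draws on the spread shared across genes, and precision is limited by the number of arrays.

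The members, lists and motifs were chosen with earlier results of these data known. Genes named are the 9 members, up to 5 called genes per list and time with the largest change, 6 transcription factors and regulators, and the 5 genes most correlated with MAP1LC3B, SQSTM1 and GABARAPL1. Lists are described by counts and medians, without a set test. Alternatives covered normalisation, filter, probe set, variance prior, replicate block, the arrays in the fit and each array left out; centring on the genes tested was added after the data were seen. Protein sequences were not analysed here.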

Additional observations from a re-analysis of the deposited data

Results flagged for a closer look

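The CdCl effect differed between 12 h and 48 h, by the interaction test in limma, for 5 of the 9 genes, 4 lower and 1 higher, against 13.0% lower and 27.0% higher over all genes. The difference (48 h minus 12 h, log2) was -0.62 for MAP1LC3B, -0.50 for SQSTM1, -0.68 for WIPI1 and -0.52 for ATG12, and 0.26 for NBR1. The NBR1 call (adjusted p = 0.0466) was lost in 10 of 12 fits without 1 array and under quantile normalisation, both centrings, every probe set as a feature and the replicate block, with adjusted p from 0.0622 to 0.267 for these 5 settings. For MAP1LC3B and SQSTM1 a further probe set gave 0.11 and 0.14, which did not pass the test (adjusted p = 0.549 and 0.586), and for NBR1 a further probe set gave -0.28 (adjusted p = 0.191). WIPI1 gave -0.32 on its other probe set (adjusted p = 0.0511), and ATG12 gave -0.52 and -0.45 on its other 2 (adjusted p = 0.0274 and 0.0702). The cause of the differences between probe sets was not tested.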

How the results depend on the processing

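On the main probe sets, no called change of a member reversed under any alternative run, and the calls of MAP1LC3B, GABARAPL1, SQSTM1, WIPI1 and ATG12 in each comparison were unchanged. On other probe sets NBR1 at 12 h turned (0.34), and calls of MAP1LC3B, SQSTM1, WIPI1 and ATG12 were lost as given beside those genes. At 12 h the number of members called lower was 2, and 1 with the 6 arrays of that time alone or with arrays centred on the genes tested. In the interaction the number called higher was 1, and 0 under quantile normalisation, either centring, every probe set as a feature or the replicate block. Leaving out 1 array gave 1 to 3 members lower at 12 h, 0 to 1 lower at 48 h and 0 to 1 higher in the interaction. The counts called higher also fell, at 12 h in the 2 fits where GABARAPL2 lost its call and in controls in the 9 where ULK1 did. Centring on the genes tested left 2830 of all genes lower at 12 h and 1907 higher in the interaction. With every probe set as a feature, more features were tested, 19005 in all. Of these, 3801 were called higher at 12 h, and 4523 higher and 4930 lower at 48 h. In the interaction 2910 were called lower, and in controls with time 4728 were called higher and 5395 lower. At each time, CdCl and control arrays of the same replicate number showed no positive correlation of deviations from their group means (-0.336 to -0.003). Arrays of different numbers or times were not compared, so this does not settle whether samples were paired. The replicate block changed no other member count, with 6 higher and 2 lower at 12 h, 5 higher at 48 h and 4 lower in the interaction. ULK1 in controls lost its call with arrays centred on their medians (adjusted p = 0.0552), with every probe set as a feature (0.0546) and without the filter (0.128), and it did not pass the stricter filter of 6, so that 8 members were called higher in controls under these 4 settings. The causes were not tested.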
